A study of Mus musculus with 8 samples.

Results

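Igf2bp1, Igf2bp2, Igf2bp3, Lin28b, Hmga1 and Hmga2 encode RNA-binding and chromatin proteins of the fetal liver, several of which return in liver tumours. They were chosen by name, and these 6 gene rows were read from the 35204 rows of the deposited table of normalised counts. These genes and the gene lists used below were chosen with earlier results of these data known. The study's title places it in a TAZ-TEAD2 pathway in hepatocellular carcinoma. Poly-A selected RNA was sequenced from pieces of mouse liver, giving 8 libraries. Untreated wild-type C57BL/6J mice gave the 3 control libraries. The 5 TAZ-CCl4 libraries came from wild-type C57BL/6J mice that received a TAZ construct carrying the S89A allele, driven by the EF1a promoter, by HTVI, and then 30 doses of carbon tetrachloride (CCl4), given 3 times a week for 10 weeks. HTVI is the usual short form of hydrodynamic tail vein injection, a route by which plasmid DNA enters mainly hepatocytes, and EF1a is a broadly active promoter that is not restricted to a cell type. CCl4 is a hepatotoxin that injures the cells around the central vein. Ages are not in the labels, no group received TAZ or CCl4 alone, and the library project named in the labels coincides with the group, so the construct, the toxin and the project cannot be told apart. Nothing in the labels ties the libraries to separate animals, so the p-values below measure only the spread between these samples, part of which may be technical.

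The Igf2bp genes encode 3 related proteins with RRM and KH domains that bind messenger RNAs, among them those of Igf2 and Myc, and affect their stability, location and translation. Igf2bp1 and Igf2bp3 are known as embryonic genes that are nearly silent in adult liver, whereas Igf2bp2 persists in adult tissues. Lin28b and its paralog Lin28a bind the precursors of the let-7 microRNAs and block their maturation. Mature let-7 microRNAs in turn repress messenger RNAs that carry matching sites in their 3′ UTR, and Hmga2, Lin28b and Igf2bp1 are textbook examples. Hmga1 and Hmga2 are small chromatin proteins whose AT-hooks bind the minor groove of AT-rich DNA. They are abundant in embryos and in many tumours.

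The let-7 site was the sequence feature looked for across the 6 genes. The RefSeq table held 9 distinct mature sequences of the family on the build GRCm38.p6, and all 9 share the seed GAGGUAG (bases 2 to 8). Of these, 3 are shown with the seed in capitals, since they show how the family differs outside it.
mmu-let-7a-5p: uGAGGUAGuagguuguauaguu
mmu-let-7g-5p: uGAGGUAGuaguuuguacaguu
mmu-miR-98-5p: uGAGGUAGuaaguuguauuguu
The match to this seed is CTACCTC, searched on the transcript strand in the longest annotated coding 3′ UTR of each gene (GENCODE M21, mm10). All 6 genes held at least 1 match, against 8.98% of 20909 coding genes with a 3′ UTR. The genes were chosen by name, and some are known let-7 targets. Their UTRs, of 1183 to 6337 bases, were also longer than the median of 956, and genes with more matches have longer UTRs. Hmga2, Igf2bp1 and Lin28b held 4 each, a number that 12 of the 20909 genes reached, and Igf2bp2, Igf2bp3 and Hmga1 held 1 each. Lin28a held 2. The match was followed by an A, which lengthens the complementary stretch opposite the first base of the microRNA, at 3 of the 4 sites of Igf2bp1, at 1 of 4 in Hmga2 and Lin28b, and at the single sites of Igf2bp2 and Igf2bp3, but not at that of Hmga1. Below, 1 site of each gene is printed as 30 bases on the transcript strand, with the seed match in capitals.
Hmga2, chr10:120364213-120364242, minus strand: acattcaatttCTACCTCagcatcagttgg
Igf2bp1, chr11:95959346-95959375, minus strand: agtgctattaaCTACCTCagccccagaggg
Lin28b, chr10:45381011-45381040, minus strand: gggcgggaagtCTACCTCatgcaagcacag
Igf2bp2, chr16:22059462-22059491, minus strand: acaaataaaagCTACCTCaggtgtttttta
Igf2bp3, chr6:49086776-49086805, minus strand: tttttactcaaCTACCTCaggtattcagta
Hmga1, chr17:27563281-27563310, plus strand: ctgttcacaaaCTACCTCtggacggttgtg
A match describes the letters and is not a measured site of repression. Mature let-7 was not measured here, since poly-A selection does not retain it.

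**Figure D1:**
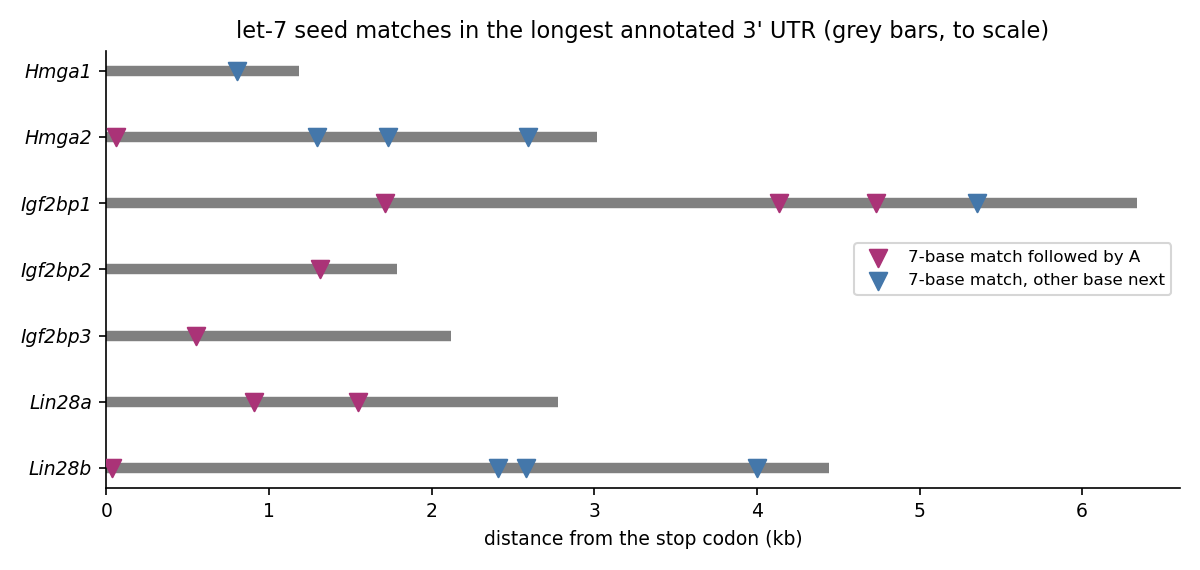
Positions of the let-7 seed match along the longest annotated 3′ UTR of each gene, in kb from the stop codon. Grey bars are the UTRs to scale, and triangles mark matches followed by A or by another base. Igf2bp1 has the longest UTR and 4 matches, while Hmga1 and Igf2bp2 have 1 each.

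The introduced gene checked the labels. Wwtr1, which encodes TAZ, stood at 463, 358 and 280 normalised counts in control replicates 1 to 3 and at 9021, 4339, 5114, 4892 and 5299 in TAZ-CCl4 replicates 1 to 5. The groups did not overlap, and reads of the construct and of the mouse gene cannot be told apart. Each control summed to 29.8 to 35.1 M normalised counts and each TAZ-CCl4 library to 12.4 to 14.2 M, and the depth estimated from the smallest step between values was 12.4 to 33.8 M reads. Control replicate 1 stood apart in a way that bears on these genes. Of 16 pluripotency markers, a list chosen after the values were seen, 13 were at their highest of all 8 libraries in it. Their summed level was 237 there against 24.4 and 15.0 in the other controls and 48.8 to 79.9 in TAZ-CCl4. Pou5f1, the core pluripotency factor, read 39.8 in control replicate 1 and 0 in the other controls. Where such transcripts in that library came from was not tested. Results are therefore also given without it below.

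**Figure D2:**
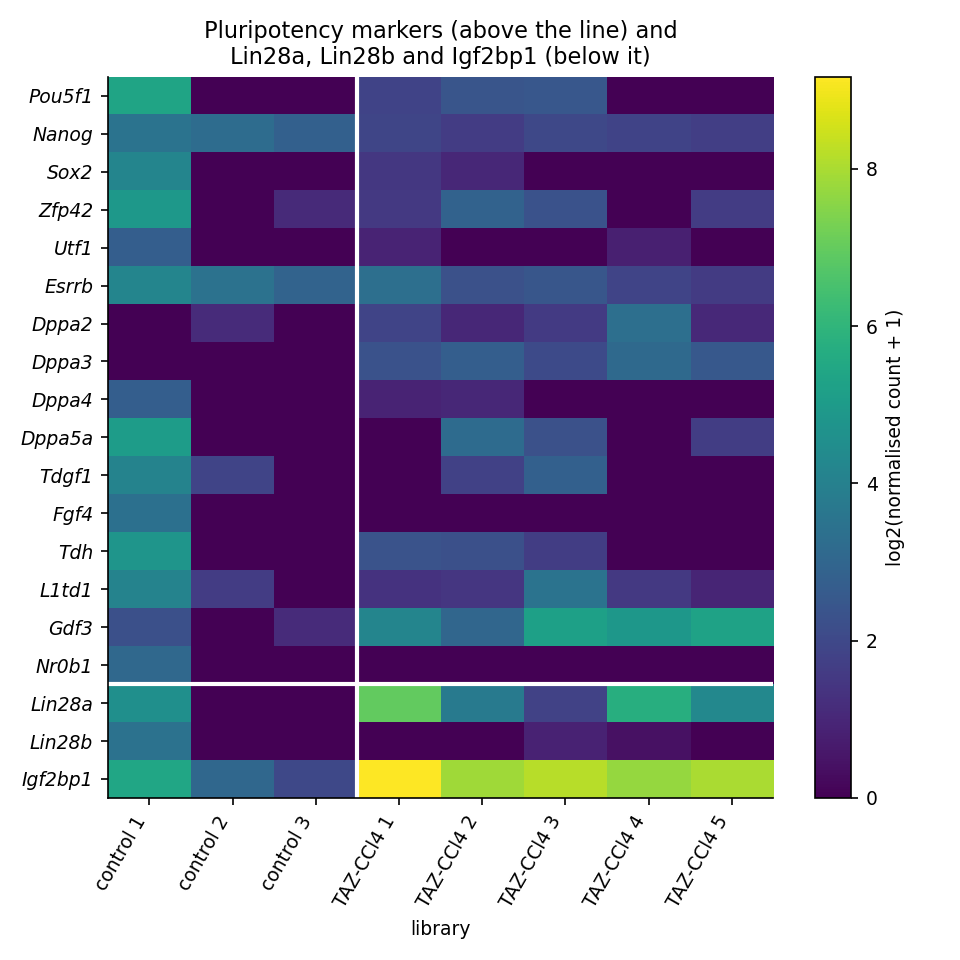
Heat map of log2(normalised count + 1) for 16 pluripotency markers, with Lin28a, Lin28b and Igf2bp1 below the horizontal line, in 3 control and 5 TAZ-CCl4 libraries. The column of control 1 is bright for markers such as Pou5f1 (39.8) that are at 0 in the other controls, while Igf2bp1 is brightest in the TAZ-CCl4 columns.

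Of the 6 genes, 5 reached a mean of 10 normalised counts over the 8 libraries and were tested, and all 5 rose in TAZ-CCl4. Lin28b did not reach that level. The test was limma on log2(value + 1), with p-values adjusted over 14171 genes by Benjamini-Hochberg. Of all genes tested, 32.4% were called higher and 29.8% lower at an adjusted p under 0.05. A call in this comparison was thus common. A gene that passes the filter only through its level in TAZ-CCl4, as Igf2bp3, Hmga2 and Lin28a did, had to have the higher mean there. The same holds for D630033A02Rik, Prtg and Bex1, named below with control means under 10. This fixes which mean is higher but not whether the gene is called, and Lin28a was not. In 4 of the 6 genes, Igf2bp1, Igf2bp3, Hmga1 and Hmga2, every TAZ-CCl4 library lay above every control, against 30.7% of the tested genes, while 29.4% lay wholly below. In bulk tissue, a change in the share of a cell type and a change in RNA per cell cannot be told apart.

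Igf2bp1 (ENSMUSG00000013415.9, chr11:95957163-96005940, minus strand) stood at 42.0, 7.30 and 3.0 normalised counts in the controls, against 575, 230, 288, 212 and 258 in TAZ-CCl4 replicates 1 to 5. The lowest treated library was thus well above the highest control, and treated replicate 1 stood above the other treated libraries. The means were 17.4 ± 21.4 (SD, n = 3) and 313 ± 150 (SD, n = 5), and the log2 fold change was 4.70 ± 0.65 (SE, limma adjusted p = 1.31e-04). The control mean rested on control replicate 1. Without it, 28.6% of all genes were called higher and 25.2% lower. The Igf2bp1 control mean was then 5.15 and the log2 fold change 5.66 (limma adjusted p = 1.58e-05). With that control mean under the filter of 10, Igf2bp1 too had to have the higher mean in TAZ-CCl4 in this fit. Without control replicate 3, the lowest, the log2 fold change was 3.95.

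Igf2bp3 (ENSMUSG00000029814.10, chr6:49085223-49214957, minus strand) was nearly absent from the controls. It was listed at 1.85, 0 and 0 in them, where 1.85 is about 1 read, and at 242, 65.8, 347, 385 and 208 in TAZ-CCl4. Treated replicates 4 and 3 were highest and replicate 2 was lowest, an order that differs from that of Igf2bp1. The difference on the log2(value + 1) scale was 7.24 ± 0.59 (SE, limma adjusted p = 4.41e-06). Its size depends on the pseudocount, being 8.0 with 0.5 and 5.31 with 5, and it is no bound on the fold change, since a pair of controls are listed at 0. Without control replicate 1, which leaves controls that are all at 0, the difference was 7.75 (limma adjusted p = 1.86e-05).

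Igf2bp2 (ENSMUSG00000033581.17, chr16:22059009-22163299, minus strand), the member of the family that adult tissues keep, moved least of the 3. Its values were 39.3, 13.2 and 25.7 in the controls and 96.2, 45.1, 59.6, 34.1 and 68.9 in TAZ-CCl4. The groups overlapped, because treated replicate 4 lay below control replicate 1. The means were 26.1 ± 13.1 (SD, n = 3) and 60.8 ± 23.8 (SD, n = 5), and limma put the log2 fold change at 1.23 ± 0.42 (SE, adjusted p = 0.0268). This call was lost under quantile normalisation (log2 fold change 0.23, limma adjusted p = 0.673), without treated replicate 1 (1.04, 0.0558) or 5 (1.16, 0.0553), and without control replicate 2 (0.83, 0.127) or 3 (1.28, 0.0585). Permuting the 8 libraries gave p = 0.0714 (exact, two-sided). Without control replicate 1 the log2 fold change was 1.58 (limma adjusted p = 0.0152).

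**Figure D3:**
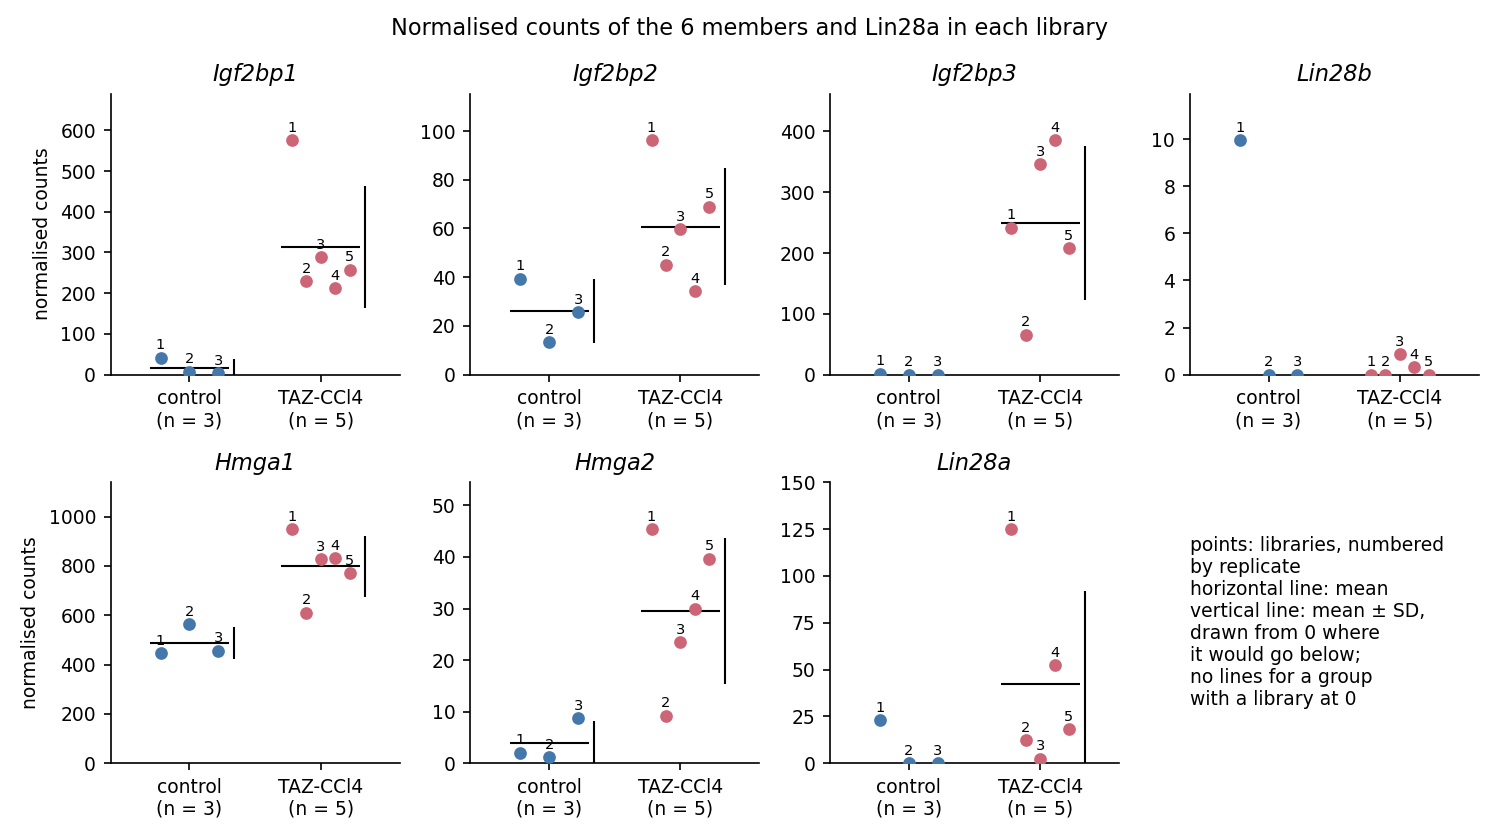
Normalised counts of the 6 genes and of Lin28a in each library, on linear axes that start at 0 and differ between panels. Points are libraries numbered by replicate, horizontal lines are means and vertical lines span 1 SD either side, ending at 0 where they would pass it; groups with a library at 0 have no lines. Igf2bp1, Igf2bp3, Hmga1 and Hmga2 show no overlap between groups, whereas Igf2bp2 and Lin28a overlap.

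The makeup of the Igf2bp family therefore differed between the groups. To compare levels between genes, normalised counts were divided by the median exonic length of each gene's coding transcripts, which gives counts per kb. The 3 genes summed to 9.70 ± 6.26 counts per kb in the controls (SD, n = 3) and 112 ± 37.0 in TAZ-CCl4 (SD, n = 5). Without control replicate 1 the control sum was 6.19 counts per kb. In the controls Igf2bp2 made up 67.5%, 81.3% and 95.4% of that sum. In TAZ-CCl4 its share was 18.1%, 23.3%, 13.0%, 7.91% and 20.1%, below every control. Igf2bp3 went from 2.54%, 0% and 0% to 36.6%, 27.3%, 60.8%, 71.7% and 48.7%, and Igf2bp1 from 17.8% ± 12.7 (SD, n = 3) to 34.5% ± 12.4 (SD, n = 5) with overlap between the groups. Igf2bp3 had the larger share in treated replicates 3, 4 and 5, and Igf2bp1 in replicates 1 and 2.

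**Figure D4:**
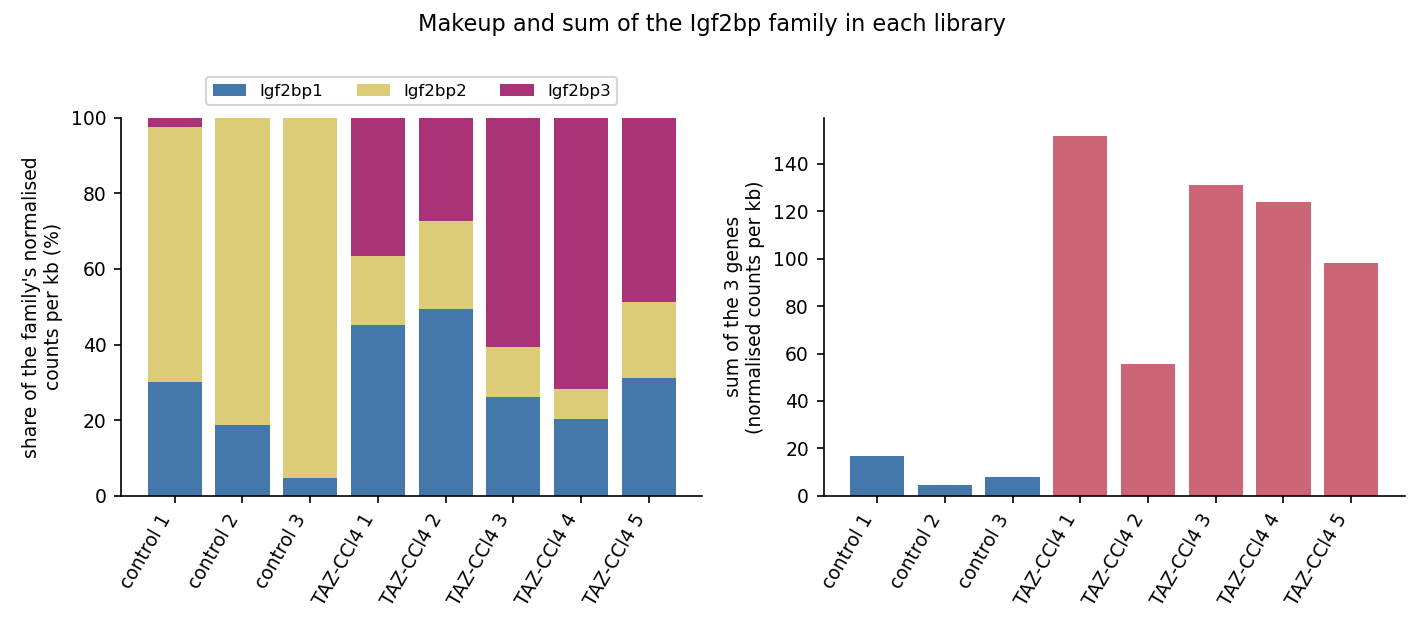
Left, share in percent of the Igf2bp family's normalised counts per kb held by each gene, in 8 libraries. Right, the sum of the 3 genes in counts per kb, with controls in blue and TAZ-CCl4 in red. Igf2bp2 holds 67.5% to 95.4% in the controls and 7.91% to 23.3% in TAZ-CCl4.

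Ratios within a library tested whether paralogs moved by different amounts. For 4 pairs, the log2 ratio of (value + 1) was compared between groups by an exact permutation test (two-sided), whose smallest p over the 56 divisions of 8 libraries is 0.0357. Igf2bp1 against Igf2bp2 went from -1.14 ± 1.45 (SD, n = 3) to 2.33 ± 0.29 (SD, n = 5), a difference of 3.47 (exact permutation p = 0.0357, 0.0476 adjusted over the 4 pairs). Igf2bp3 against Igf2bp2 differed by 6.01 and Igf2bp1 against Igf2bp3 by -2.55, each with that same smallest p, exact, and an adjusted 0.0476. All of the 5 treated libraries lay on one side of the controls in each of these pairs. Igf2bp3 was listed at 0 in control replicates 2 and 3, so its ratios there are set by the pseudocount and the other gene. Their sizes therefore do not say how far Igf2bp3 moved against a paralog. The 3 Igf2bp pairs are also not independent, since each follows from the others. Against Hmga1, Hmga2 was higher by 2.06 in TAZ-CCl4, which missed the threshold (exact permutation p = 0.0714, adjusted 0.0714). With a pseudocount of 5 the Igf2bp1 against Igf2bp3 difference shrank to -1.15 (exact permutation, adjusted p = 0.214). The other Igf2bp pairs had adjusted p = 0.0714 by the same exact test with that pseudocount, and so did all 3 with libraries scaled to equal totals.

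Lin28b (ENSMUSG00000063804.8, chr10:45376620-45486395, minus strand) was at or near 0 in TAZ-CCl4. It was listed at 9.95, 0 and 0 in the controls, against 0, 0, 0.857, 0.318 and 0 in TAZ-CCl4. The value in control replicate 1 stands for about 5 estimated reads and those in treated replicates 3 and 4 for under 1 estimated read each. The only library with more than an estimated read was therefore the control that also held the pluripotency markers. A fold change of Lin28b would be set by the pseudocount, and none is given. At this depth a low level of Lin28b in TAZ-CCl4 was not detectable.

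Lin28a (chr4:134003330-134018841, minus strand), the paralog that acts on the same precursors, was listed at 22.8, 0 and 0 in the controls, against 125, 12.4, 2.47, 52.3 and 18.3 in TAZ-CCl4. It varied over 50.7 times among the treated libraries, with replicate 1 highest. With all libraries it did not pass (log2 difference 2.98 ± 1.30, SE, limma adjusted p = 0.0679), and the groups overlapped. The call depended on the setting. The difference was 4.50 without control replicate 1 (limma adjusted p = 0.0106), which leaves controls that are all at 0, and 3.66 without treated replicate 3 (limma adjusted p = 0.0236). With libraries scaled to equal totals it was 3.8 (limma adjusted p = 0.0130), or 3.47 without Mup and mitochondrial genes in the totals (limma adjusted p = 0.0297).

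Hmga1 (ENSMUSG00000046711.16, chr17:27556497-27563674, plus strand) was the most abundant of the 6 in both groups and rose by the smallest factor. It stood at 446, 563 and 457 in the controls, against 950, 611, 828, 830 and 771 in TAZ-CCl4, with no overlap, the closest values being 611 and 563. The means were 489 ± 65.0 (SD, n = 3) and 798 ± 123 (SD, n = 5), and the log2 fold change was 0.70 ± 0.16 (SE, limma adjusted p = 0.00323). Without control replicate 1 the log2 fold change was 0.64 (limma adjusted p = 0.0193). The table also lists Hmga1b, a near-identical copy on chromosome 11 whose 30 bases around the let-7 match equal those of Hmga1, so reads could be split between them. Hmga1b was listed at 1.78, 0 and 11.4 in the controls and was at 0 in every treated library, small against Hmga1.

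Hmga2 (ENSMUSG00000056758.14, chr10:120361275-120476469, minus strand) was low but rose by more. Its values were 2.04, 1.18 and 8.73 in the controls and 45.5, 9.25, 23.5, 30.0 and 39.7 in TAZ-CCl4. The groups were parted by a narrow gap, between control replicate 3 and treated replicate 2. The means were 3.98 ± 4.13 (SD, n = 3) and 29.6 ± 14.2 (SD, n = 5), and the log2 fold change was 2.76 ± 0.64 (SE, limma adjusted p = 0.00362). Without control replicate 3 the log2 fold change was 3.40 (limma adjusted p = 0.00182), and without control replicate 1 it was 2.56 (limma adjusted p = 0.0164). Hmga1 still made up 99.1% of the HMGA counts per kb in TAZ-CCl4, against 99.8% in the controls.

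The scaling moved the sizes of these changes. With libraries scaled to equal totals, the median of all tested genes shifted from 0.03 to 1.26 (log2), and 76.3% of genes were called higher and 6.37% lower. All 5 tested genes were higher there too. Less that median, Hmga1 stood at 0.68 under both scalings, Igf2bp1 at 4.67 and 4.59, Igf2bp2 at 1.2 and 1.17, Igf2bp3 at 7.22 and 6.74, and Hmga2 at 2.73 and 2.5, deposited scaling first.

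**Figure D5:**
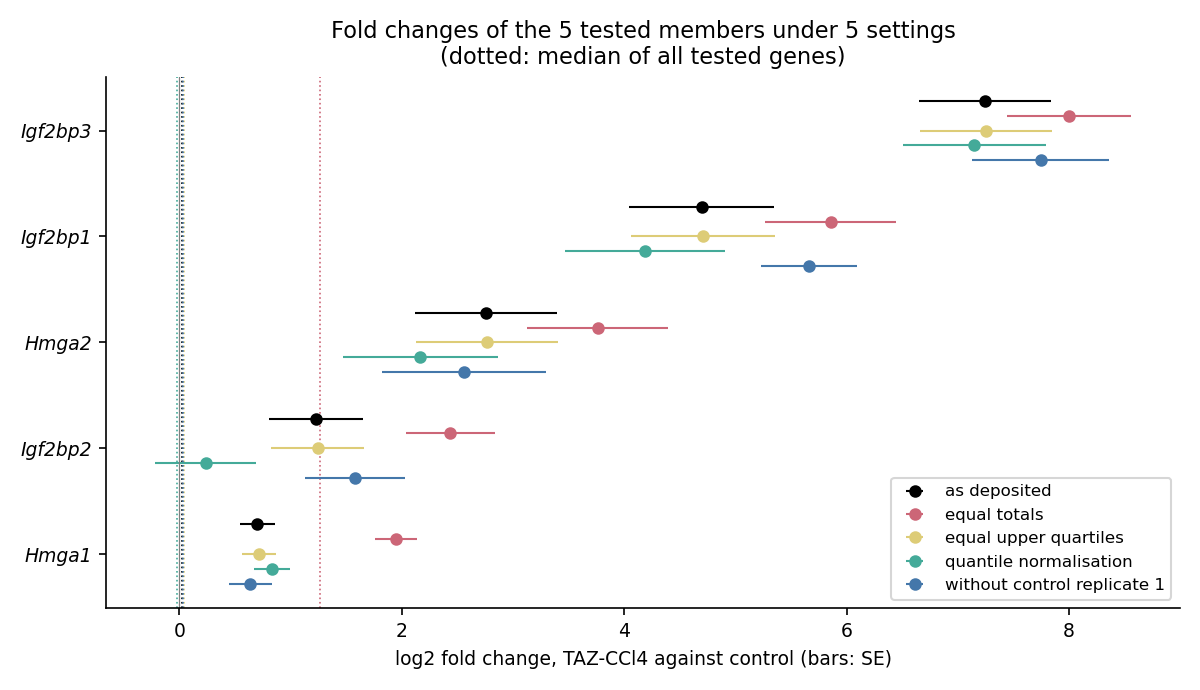
Log2 fold change of TAZ-CCl4 against control for the 5 tested genes, with SE as bars, under 5 settings. Dotted lines mark the median of all tested genes, which lies at 1.26 with equal totals. Igf2bp2 falls to 0.23 under quantile normalisation.

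Set in order by normalised counts per kb, the genes changed places. In the controls Hmga1 (533) was followed by Igf2bp2 (7.48), Igf2bp1 (2.08), Hmga2 (1.06), Lin28b (0.614) and Igf2bp3 (0.142). Igf2bp1, Hmga2, Lin28b and Igf2bp3 overlapped over the control libraries, as did Igf2bp2 and Igf2bp1. Without control replicate 1, Igf2bp1 (0.615) stood below Hmga2 (1.32), and Lin28b and Igf2bp3 were both listed at 0. In TAZ-CCl4 Hmga1 (870) was followed by Igf2bp3 (57.4), Igf2bp1 (37.3), Igf2bp2 (17.4), Hmga2 (7.86) and Lin28b (0.0435). Each neighbouring pair among Igf2bp3, Igf2bp1, Igf2bp2 and Hmga2 overlapped over the treated libraries. Among 13615 tested genes with a length, the level per kb of Hmga1 was above 77.5% in the controls and 88.2% in TAZ-CCl4. For Igf2bp3 these were 0.360% and 28.6%, for Igf2bp1 4.05% and 21.3%, for Igf2bp2 12.6% and 11.7%, and for Hmga2 2.03% and 5.35%. With the longest coding transcript as the length, the order was the same, but Hmga1 read 244 and 399 counts per kb.

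The treated libraries did not move as a block. Replicate 1, which also held the most Wwtr1, was highest for 4 of the 6 genes (Igf2bp1, Igf2bp2, Hmga1 and Hmga2). A link to Wwtr1 was not tested, and no share over all genes is given for such ranks. Replicate 2 was lowest for 3 of the 5 tested genes (Igf2bp3, Hmga1 and Hmga2) and replicate 4 for the other two. The highest value was 1.56 times the lowest for Hmga1, 2.72 times for Igf2bp1, 2.82 times for Igf2bp2, 4.92 times for Hmga2 and 5.86 times for Igf2bp3.

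The genes with the most similar pattern were found by the root mean square difference over the 8 libraries. Each gene's log2(value + 1) was first centred on its mean over the controls, so a like size of group difference counts towards similarity. For Igf2bp1 they were Slc35f2 (0.56), Cd300ld3 (0.56) and Zfp185 (0.58), and for Igf2bp3 Scube3 (0.77) and Ankrd1 (0.81). Igf2bp2 lay nearest to Arid5a, Asap1 and Ccne2 (0.32 to 0.33), Hmga2 to Zfp462, Nhs and Cdkn2b (0.47 to 0.51), and Hmga1 to Rbms1, Rcc2 and Nrip1 (0.10 to 0.11). This is a description of 8 libraries that share their group difference.

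Of the other genes of let-7 processing and action, 8 of 21 tested rose, 3 fell and 10 missed the threshold, for a median log2 fold change of 0.42 against 0.03 over all genes. The share called higher was 38.1%, close to the 32.4% of all genes, and 14.3% were lower, against 29.8%. Ago2, which binds the mature microRNA and cleaves targets, rose from 341 ± 31.0 (SD, n = 3) to 954 ± 228 (SD, n = 5; log2 fold change 1.46, limma adjusted p = 5.65e-05). Drosha, which cuts primary microRNA transcripts, rose from 227 ± 24.2 to 512 ± 77.3 (SD, n = 3 and 5; 1.16, limma adjusted p = 1.53e-04). Tut7, a uridylyl transferase of let-7 precursors, fell from 2218 ± 238 to 1050 ± 83.8 (SD, n = 3 and 5; -1.08, limma adjusted p = 3.22e-05). It read 0.17, however, with equal totals, where 19 of the 21 rose, against 76.3% of all genes, and none fell. Without control replicate 1, 7 rose and 1 fell, and 1 fell without control replicate 2.

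Host genes stand in for let-7 transcription only loosely, and those of 7 of the 12 let-7 loci with an annotated host were not analysed here. Huwe1, whose introns hold Mirlet7f-2 and Mir98, read 4030 ± 473 in the controls and 3634 ± 492 in TAZ-CCl4 (SD, n = 3 and 5; limma adjusted p = 0.379). Wdr82, host of Mirlet7g, read 748 ± 96.7 and 660 ± 43.4 (SD, n = 3 and 5; limma adjusted p = 0.249). Spaca6, host of Mirlet7e, rose from 99.1 ± 9.16 to 412 ± 181 (SD, n = 3 and 5; log2 fold change 1.96, limma adjusted p = 1.89e-04). D630033A02Rik, which overlaps Mirlet7i, rose from 7.66 ± 1.92 to 20.1 ± 3.45 (SD, n = 3 and 5; 1.29, limma adjusted p = 0.0104).

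Of the other known let-7 targets, 17 of 29 tested rose, 5 fell and 7 missed the threshold, for a median of 1.14. These are 58.6% higher and 17.2% lower, against 32.4% and 29.8% of all genes. The filter may raise the share called higher, since targets such as Prtg (control mean 1.91) passed it only through TAZ-CCl4. Igdcc4, a fetal immunoglobulin-family receptor, rose from 17.3 ± 12 to 550 ± 198 (SD, n = 3 and 5; log2 fold change 5.06, limma adjusted p = 9.39e-06). Prtg, which encodes the embryonic receptor protogenin, rose from 1.91 ± 1.07 to 62.3 ± 41.3 (SD, n = 3 and 5; 4.26, limma adjusted p = 9.55e-05). Pgrmc1, a haem-binding membrane protein abundant in hepatocytes, fell from 29760 ± 2039 to 7551 ± 1512 (SD, n = 3 and 5; -2.0, limma adjusted p = 1.15e-05). With equal totals, where 76.3% of all genes were called higher, 27 rose and 1 fell. Without any 1 of the controls, or of treated replicates 3, 4 and 5, 3 fell. The list mixes cell cycle, receptor and signalling genes, and the share called did not follow the number of matches in the 3′ UTR step by step. Of genes with 0, 1, 2 and 3 or more matches, 32.8% of 12119, 35.2% of 1239, 31.4% of 159 and 40% of 25 were called higher, and 29.8%, 26.9%, 32.7% and 20% were called lower. The last of these groups includes Igf2bp1 and Hmga2 themselves. Genes with more matches have longer UTRs, with medians of 1044 bases for 0 and 4453 for 3 or more.

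Of 13 tested messenger RNAs known to be bound by IGF2BP proteins, 8 rose, 1 fell and 4 missed the threshold, for a median of 0.47. In percent, 61.5% were higher and 7.69% lower, against 32.4% and 29.8% of all genes. Igf2, the fetal growth factor that gave the family its name, stood at 21.4, 24.6 and 8.75 in the controls, against 39055, 114439, 14045, 112853 and 4695 in TAZ-CCl4 (log2 fold change 10.81 ± 0.95, SE, limma adjusted p = 6.33e-06). It was highest in replicates 2 and 4, whereas Igf2bp1 was highest in replicate 1 and Igf2bp3 in replicate 4. Without treated replicate 5 the Igf2 log2 fold change was 11.51. Cd44, a cell surface receptor for hyaluronan, rose from 59.7 ± 17.0 to 623 ± 108 (SD, n = 3 and 5; 3.38, limma adjusted p = 1.28e-06). Myc rose from 176 ± 39.2 to 933 ± 390 (SD, n = 3 and 5; 2.34, limma adjusted p = 4.93e-05). Sirt1, a protein deacetylase, fell at the deposited scaling from 301 ± 49.3 to 171 ± 24.9 (SD, n = 3 and 5; -0.81, limma adjusted p = 0.00314). It read 0.44, however, with equal totals, where 12 of the 13 rose, against 76.3% of all genes.

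The next list was the machinery of m6A, the RNA mark that IGF2BP proteins can read. Of 19 genes tested, 1 rose, 5 fell and 13 missed the threshold, for a median of -0.12. The share called lower was 26.3%, close to the 29.8% of all genes, and 5.26% were higher, against 32.4%. Rbm15b, which guides the methyltransferase, rose from 247 ± 36.0 to 530 ± 105 (SD, n = 3 and 5; log2 fold change 1.08, limma adjusted p = 7.71e-04). Ythdf3, another reader of the mark, fell from 1745 ± 39.3 to 843 ± 126 (SD, n = 3 and 5; -1.06, limma adjusted p = 9.97e-05). These directions turn with the scaling. With equal totals 17 of the 19 were called higher, against 76.3% of all genes, none was called lower and Ythdf3 read 0.19. Fewer fell without control replicate 1 (3) or 3 (2), and 4 rose without treated replicate 4.

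Of 15 other HMG-type chromatin genes tested, 8 rose, 2 fell and 5 missed the threshold, for a median of 0.76. That makes 53.3% higher and 13.3% lower, against 32.4% and 29.8% of all genes. Hmgb2, an HMG-box protein of dividing cells, rose from 66.0 ± 6.46 to 361 ± 170 (SD, n = 3 and 5; log2 fold change 2.29, limma adjusted p = 4.20e-04). Hmgn5, a nucleosome-binding protein, fell from 933 ± 62.6 to 370 ± 71.2 (SD, n = 3 and 5; -1.35, limma adjusted p = 7.68e-05), and Tox fell from 73.3 ± 12.1 to 24.3 ± 12.5 (SD, n = 3 and 5; -1.71, limma adjusted p = 0.00776). With equal totals, where 76.3% of all genes were called higher, 13 rose and neither Hmgn5 nor Tox passed.

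Other oncofetal genes changed alongside. Of 16 tested, 11 rose (68.8%, against 32.4% of all genes), none fell and 5 missed the threshold, for a median of 3.02. The filter may raise the share called higher, since genes such as Bex1 (control mean 7.81) passed it only through TAZ-CCl4. Afp, the fetal serum protein used as a liver tumour marker, rose from 30.3 ± 12.7 to 9607 ± 4703 (SD, n = 3 and 5; log2 fold change 8.19, limma adjusted p = 2.57e-07). Bex1 rose from 7.81 ± 9.53 to 2078 ± 1393 (SD, n = 3 and 5; 8.29, limma adjusted p = 3.16e-06). Its log2 fold change was 9.18 without control replicate 1 and 7.59 without control replicate 2. Sall4 and Trim71, other stem-cell genes, were too low to test and were highest of the controls in control replicate 1, at 18.6 and 22.6. H19 was not analysed here.

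Markers of dividing cells and of other cell types moved with the group as well, and their part in the results above was not tested. Over all genes tested, 32.4% were called higher and 29.8% lower, or 76.3% and 6.37% with equal totals. All but 1 of 26 cell cycle genes rose, with summed levels of 1630 to 2645 in the controls and 5086 to 15118 in TAZ-CCl4, and the highest control was replicate 1. Of 11 hepatocyte markers, 10 fell, against 5 with equal totals, and their sum went from 2135075 to 2630767 in the controls to 733580 to 1059241. Alb was among them at 1365905 ± 212188 and 617414 ± 128386 (SD, n = 3 and 5), and was the 1 that did not pass (limma adjusted p = 0.190). The Alb groups did not overlap, however (exact permutation p = 0.0357, unadjusted), and 29.4% of all tested genes lay wholly below the controls. Of 9 cholangiocyte markers 8 rose, the sum going from 2327 to 2921 in the controls to 35067 to 121964. Krt19 rose from 69.8 ± 49.98 to 179 ± 78.4 (SD, n = 3 and 5; limma adjusted p = 0.0297) with overlap, a call lost without either of control replicates 1 and 2 or any 1 of treated replicates 1, 2 and 4 (limma adjusted p up to 0.142). Epcam rose from 59.0 ± 7.32 to 580 ± 265 (SD, n = 3 and 5; limma adjusted p = 9.02e-05).

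Of 12 stellate and fibroblast markers 9 rose, with sums of 2524 to 4038 and 10815 to 20590. Of 10 macrophage markers 5 rose and 1 fell, with sums of 2165 to 3728 and 9092 to 18974. Of 10 endothelial markers 6 rose and 2 fell, with sums of 1880 to 3503 and 2820 to 4102. Lymphocyte markers summed to 144 to 226 and 150 to 372, with 2 of 9 higher. Neutrophil markers summed to 64.2 to 75.6 and 413 to 768, with all 5 tested higher. Any of these with a control mean under 10, such as S100a8 (8.86), passed the filter only through TAZ-CCl4 and had to have the higher mean there. The 6 tested erythroid markers fell. With equal totals 6 lymphocyte markers rose and 1 erythroid marker fell, and without treated replicate 2, 4 lymphocyte markers rose. Ly6g, Mpo, Camp and Ngp, markers of neutrophils, were at 0 in every control, and no marker of the other lists of liver and blood cells was at 0 throughout a group.

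Promoter windows were searched for 4 motifs, and with so few windows the counts are a description only. RefSeq windows from 250 bases before to 50 after the start were found for 5 of the 6 genes on GRCm38.p6, and none for Igf2bp1. Hmga1 had overlapping windows from different starts. The TEAD motif GGAATG, searched on both strands since TAZ acts through TEAD factors, was in 0 windows of these 5 genes, against 14.7% of 32851 windows. The AP-1 motif TGANTCA was in 0 of them, against 7.81%, and the TATA box TATAAA in 0, against 13.6%. The E-box CACGTG was in the windows of 2 of the 5 genes, Igf2bp3 and Lin28b, against 7.15% of all windows. The stretch of Igf2bp3 that holds both of its E-boxes is shown with them in capitals.
Igf2bp3, chr6:49214935-49214994, minus strand: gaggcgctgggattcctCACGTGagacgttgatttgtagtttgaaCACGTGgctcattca
These matches describe the letters of the windows, and no binding was measured.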

How the data were processed

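Per-gene values deposited by the authors are a normalised count signal. The table's name gives kallisto and DESeq2, and DESeq2 and mm10 are named per the submitters' processing notes. For versions and the transcript annotation, the sources used here give nothing. The smallest steps did not give whole reads (per library, 54.4% to 66.8% of those below 10 were whole multiples within 0.03), so no count model was run. Genes with a mean of at least 10 (14171) were tested with limma 3.58.1 (R 4.3.3), with a trend, on log2(value + 1), a scale that understates changes of low genes. The fitting script was checked on simulated data. Lengths and 3′ UTRs came from GENCODE M21, which may not be the annotation of the authors. Genes named beside the members included, per list, the 2 changed genes with the largest change and a higher group mean of at least 50. The 1 with the lowest adjusted p in the other direction was added. For the cell cycle and cell type lists these are not all named. Wwtr1, Lin28a, the let-7 hosts, Afp, Alb, Krt19, Epcam, Myc, Sall4 and Trim71 were named apart from this rule. The members and lists were chosen with earlier results of these data known. TAZ-CCl4 replicates were numbered in accession order, which names them only. Alternatives were other scalings, pseudocounts, filters, a replicate block and each library left out. Of the 3 genes nearest in pattern to each member, 1 is not reported here.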

Additional observations from a re-analysis of the deposited data

Results flagged for a closer look

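Of 58 values checked in the 5 TAZ-CCl4 libraries, 7 had 1 library far from the others by Dixon's criterion, which chance alone meets in about 1 group of 20. In replicate 1, Igf2bp1 stood at 575 normalised counts against 212 to 288 in the others. In the same library Wwtr1, the introduced gene, stood at 9021 (4339 to 5299 in the others), Myc at 1615 (631 to 863) and Ago2 at 1361 (834 to 885). In replicate 4, Bex1 stood at 4540 (1165 to 1766), Spp1, a marker of cholangiocytes, at 115100 (30489 to 49074) and Timp1, a marker of stellate cells, at 336 (134 to 188).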

How the results depend on the processing

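Igf2bp1, Igf2bp3, Hmga1 and Hmga2 stayed higher and past the threshold under every alternative that tested them. Igf2bp2 did not, at 0.23 with quantile normalisation and at 1.23 with p = 0.0714 in the exact permutation test. All alternatives refit the same 8 libraries, and Igf2bp3 and Hmga2 pass the filter only through TAZ-CCl4. A mean of at least 50 left 3 members tested and higher, since Igf2bp2 and Hmga2 were filtered out. With equal totals 10808 genes were higher and 903 lower, and without Mup and mitochondrial genes in the totals 8912 and 1512. The log2 ratios lost their calls with a pseudocount of 5 (3.05 for Igf2bp1 against Igf2bp2, 4.21 for Igf2bp3 against Igf2bp2, -1.15 for Igf2bp1 against Igf2bp3), with equal totals (3.42, 5.56, -2.14) and with equal totals without Mup and mitochondrial genes (3.43, 5.67, -2.24).

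Leaving out 1 library gave log2 fold changes of 3.95 to 5.66 for Igf2bp1, 0.83 to 1.58 for Igf2bp2, 6.99 to 7.75 for Igf2bp3, 0.63 to 0.81 for Hmga1, and 2.32 to 3.40 for Hmga2. The ratios ranged from 2.67 to 4.08, 5.62 to 6.35 and -3.04 to -2.08, and Hmga2 against Hmga1 from 1.51 to 2.74. With 7 libraries no ratio can pass, since the smallest exact p is then 0.0571 or more. Some genes named beside the members changed sign with equal totals: Tut7 (0.17), Sirt1 (0.44, or 0.021 without Mup and mitochondrial genes), Ythdf3 (0.19), Ythdf2 (0.63, or 0.21) and Alb (0.093, and 0.51 with quantile normalisation). The replicate numbers did not pair the samples, as same-numbered libraries' deviations correlated at -0.09 to -0.06. With a replicate block 3801 genes were higher and 3479 lower, all 5 tested members stayed higher (4.91, 1.38, 6.97, 0.69 and 2.5 for Igf2bp1, Igf2bp2, Igf2bp3, Hmga1 and Hmga2), and Lin28a passed (2.65, limma adjusted p = 0.0185). Depth limits Lin28b and Hmga2, whose values rest on few reads.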
